A study of Mus musculus with 14 samples.

Results

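The proteasome is represented on the Murine Genome U74v2 array by 58 probe sets of 46 genes, which are all probe sets of the 12422 on the array whose only gene symbol in the platform annotation begins with Psma, Psmb, Psmc, Psmd, Psme, Psmf or Psmg. A probe set is a group of short oligonucleotides that together measure 1 transcript, and 8 of the 46 genes are measured by several. The symbols Psmc3ip and Psme3ip1 meet the rule but name proteins that bind a proteasome gene product and are no subunits. Tissue was collected from mice aged 9 to 13 months in the CD2F1-(DBA/2xBalb/C) background. The control group was lung of 4 non-transgenic mice. The tumors came from hemizygous SPC/myc mice, in which the surfactant protein C promoter drives c-Myc in the respiratory epithelium, and comprised 3 pools of small tumors (about 1 mm, 3 to 4 tumors of 1 animal in each pool), 4 middle tumors (about 4 to 5 mm) and 3 large tumors (10 mm or more). Each array holds RNA of its own animal, and the 3 sizes are compared with the same 4 control lungs. Signals are linear MAS 5 intensities.

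The proteasome degrades proteins that carry a ubiquitin chain. Its 20S core is a barrel with outer rings of alpha subunits and inner rings of beta subunits, of which Psmb5, Psmb6 and Psmb7 cleave the substrate protein, while the 19S particle at its ends binds ubiquitin, unfolds the substrate with its Psmc ATPases and feeds it into the barrel. Interferon induces Psmb8, Psmb9 and Psmb10, which take the place of Psmb5, Psmb6 and Psmb7 in newly built cores (the immunoproteasome), and the activator subunits Psme1 and Psme2, and the altered core favors peptides that fit MHC class I molecules. Leukocytes hold much immunoproteasome without further stimulation, and dedicated chaperones (the Psmg proteins for the core, Psmd5, Psmd9 and Psmd10 for the 19S base) assemble the particle.

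The tumor arrays matched their label as tumors in the signal of Myc. The Myc probe set lay between 325 and 2165 in the 10 tumors and between 24.1 and 35.6 in control lung. That of surfactant protein C, a marker of alveolar type II cells, lay between 7768 and 10550 in the tumors and between 6029 and 12067 in control lung. These ranges overlap, so surfactant protein C does not tell the groups apart. Middle replicate 3 stood apart, as 25.2% of its probe sets (13 of the proteasome) carry no measurable signal in the file, and these were taken as missing. Markers of several cell types differed between tumors and control lung. Of 12 tested endothelial markers 11 were lower, of 10 pan-leukocyte markers 8, of 10 lymphocyte and NK cell markers 7 and of 12 macrophage markers 4, with Cd14 higher, whereas 9 of 9 proliferation markers and 5 of 8 alveolar type II and epithelial markers were higher (limma, adjusted p under 0.05). Over all probe sets tested, 20.8% were lower and 22.7% higher, and the 4 macrophage markers that were lower are 33.3% of those tested. In such bulk samples fewer cells of a type and less RNA per cell cannot be told apart.

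Of the 58 proteasome probe sets, 50 reached a signal of 70 on at least 3 arrays and were tested. In all tumors against control lung, 15 of the 50 rose and 3 fell (limma, adjusted p under 0.05), or 30% and 6%, while over the 8127 probe sets tested 22.7% rose and 20.8% fell. The 3 that fell were Psmb8, Psmb9 and Psmb10, the catalytic subunits of the immunoproteasome. Those that rose were led by the assembly chaperones Psmg1 and Psmg2, followed by Psmg3 and Psme1, and included 4 of 7 alpha subunits and none of the 7 probe sets of 19S ATPases. The median difference was 0.24 on the log2 scale over the 50 and 0.03 over all probe sets. When every array was scaled to 1 median, the median of all probe sets moved to 0.14 and that of the proteasome to 0.38, and 25 rose and 3 fell, against 29.0% and 17.1% of all probe sets.

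**Figure D1:**
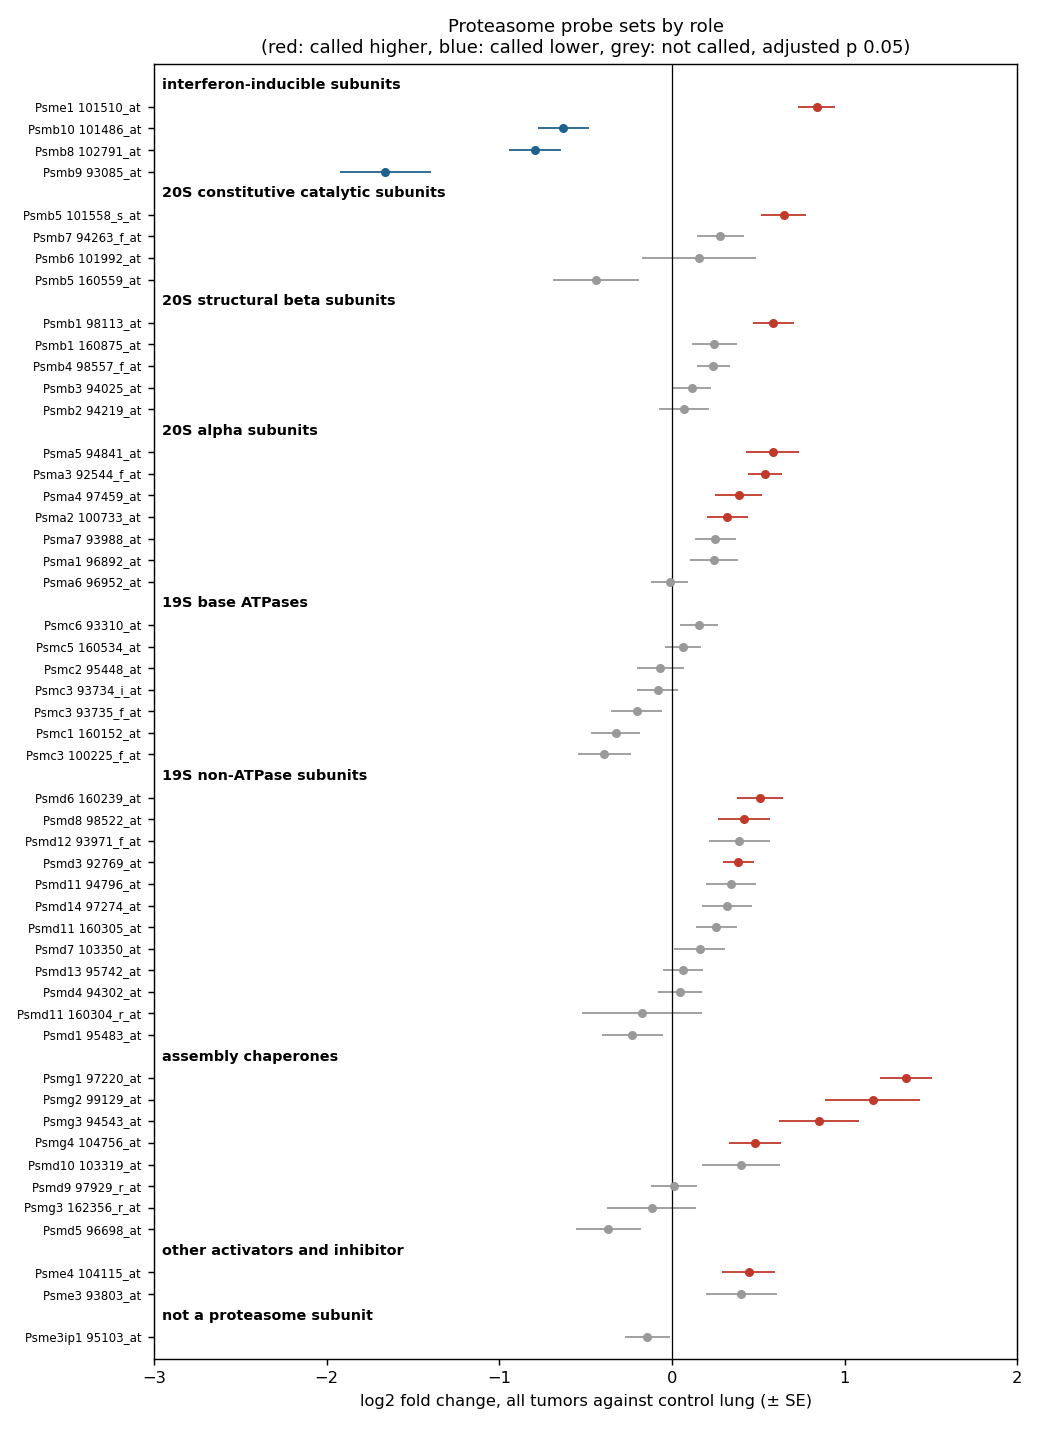
Log2 fold change of all tumors (n = 10) against control lung (n = 4) for the 50 tested proteasome probe sets, grouped by role; points are limma estimates and bars are ± 1 SE. The 3 blue points, which were called lower, are Psmb8, Psmb9 and Psmb10, and the 15 red points were called higher, from Psma2 at 0.32 to Psmg1 at 1.36.

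Psmb9, the inducible counterpart of Psmb6, showed the largest fall. Its signal was 484, 486, 434 and 399 in control lung, 178, 177 and 139 in the small tumors, 243, 191, 113 and 90.7 in the middle tumors and 154, 61.2 and 157 in the large tumors. Every tumor lay below every control lung, and 1 large tumor lay under the limit of 70. The log2 difference was -1.66 ± 0.26 (SE, adjusted p = 0.00015, limma), a 3.16-fold lower signal.

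Psmb8, the inducible counterpart of Psmb5, gave 823, 904, 902 and 689 in control lung. The small tumors gave 484, 503 and 500, the middle tumors 655, 599.5, 428 and 485 and the large tumors 426, 305 and 525. The groups did not overlap, although the highest tumor, a middle one, was close to the lowest control lung. The log2 difference was -0.79 ± 0.15 (SE, adjusted p = 0.00065, limma), or 1.73-fold lower.

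Psmb10, the inducible counterpart of Psmb7, fell by 0.63 ± 0.15 on the log2 scale (SE, adjusted p = 0.003, limma), or 1.55-fold. Its signal was 603, 526, 766 and 617 in control lung, 475, 410 and 401 in the small, 438, 421, 318 and 444 in the middle and 286, 454 and 417 in the large tumors. Here too every tumor lay below every control lung. This separation was found for 3 of the 50 proteasome probe sets and for 12.6% of all probe sets tested.

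Psme1, the alpha subunit of the PA28 activator and likewise induced by interferon, went the other way. It gave 746, 805, 809 and 796 in control lung, 1433, 1545 and 1403 in the small, 1640, 1758, 1279 and 1641 in the middle and 1459, 1186 and 1066 in the large tumors. The control lungs lay close together and every tumor was above all of them. The log2 difference was 0.84 ± 0.11 (SE, adjusted p = 2.3e-05, limma), or 1.79-fold higher. The other probe set of the gene (161293_r_at) stayed under 70 on every array and was not tested.

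Psme2, the partner of Psme1 in PA28, has no probe set of its own here. Probe set 100588_at, which the annotation gives to both Psme2 and Psme2b and which is no member for that reason, read 570, 479, 463 and 575 in control lung and between 297 and 464 in the tumors. Of the 10 tumors, 9 lay below all control lungs, and the log2 difference was -0.34 ± 0.13 (SE, adjusted p = 0.048, limma).

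**Figure D2:**
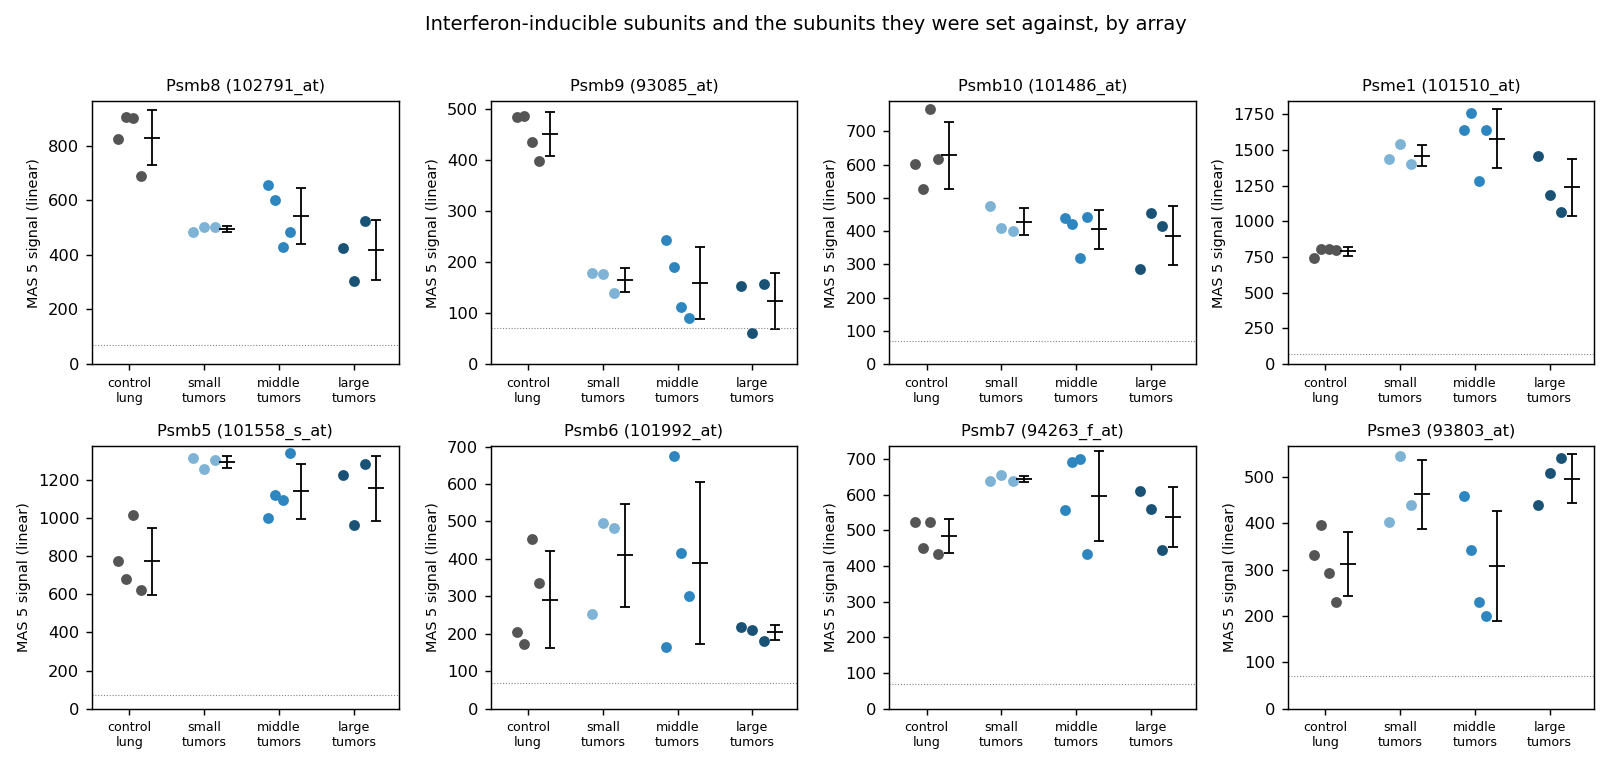
MAS 5 signal per array (linear axis from 0) of the interferon-inducible Psmb8, Psmb9, Psmb10 and Psme1 (upper row) and of Psmb5, Psmb6, Psmb7 and Psme3 (lower row) in control lung and the 3 tumor sizes; the bar beside the points is the mean ± SD, and the dotted line is the limit of 70. For Psmb8, Psmb9 and Psmb10 all 10 tumors lie below the 4 control lungs, and for Psme1 all 10 lie above them.

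The 3 catalytic subunits fell in each tumor size. For Psmb9 the log2 differences were -1.46 in small, -1.61 in middle and -1.92 in large tumors (adjusted p = 0.0042, 0.0013 and 0.00052, limma). Psmb8 gave -0.73, -0.63 and -1.01 and Psmb10 -0.54, -0.63 and -0.72, with adjusted p between 0.00093 and 0.038 (limma). Psme1 was higher by 0.89, 0.99 and 0.64. Under the scaling to 1 median, Psmb8 in middle tumors and Psmb10 in small and in middle tumors were no longer called. Under the methods' t-test with adjustment the calls of Psmb8 in middle and Psmb10 in large tumors were lost, and Psmb10 in small tumors was not called with a replicate block, without a filter or with the values of 0 kept. The call of Psmb10 in small tumors was also lost without control replicate 1, 3 or 4 or without small replicate 1, 2 or 3, and that in large tumors without large replicate 1, with adjusted p up to 0.121 and 0.063 over all alternatives (limma).

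The promoters of the inducible subunits are shown because 3 of these genes fell together and the fourth rose. The sequences are from RefSeq (GRCm38), 5′ to 3′ in the direction of the gene, and hold the 250 bases before the gene start for Psmb8 (chr17:34197945-34198194, + strand), Psmb9 (chr17:34187331-34187580, - strand) and Psmb10 (chr8:105938393-105938642, - strand), and for Psme1 30 bases at the gene start (chr14:55578493-55578522, + strand). Capitals mark the motifs described below.
Psmb8: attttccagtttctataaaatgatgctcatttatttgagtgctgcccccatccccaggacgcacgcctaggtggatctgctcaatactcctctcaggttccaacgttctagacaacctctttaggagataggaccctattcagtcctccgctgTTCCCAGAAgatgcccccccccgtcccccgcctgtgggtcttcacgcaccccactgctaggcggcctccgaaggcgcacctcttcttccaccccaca
Psmb9: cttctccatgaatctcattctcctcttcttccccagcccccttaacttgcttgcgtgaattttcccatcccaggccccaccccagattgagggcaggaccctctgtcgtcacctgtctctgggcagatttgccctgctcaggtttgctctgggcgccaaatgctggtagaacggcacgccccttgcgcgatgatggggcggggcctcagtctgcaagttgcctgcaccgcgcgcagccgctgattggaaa
Psmb10: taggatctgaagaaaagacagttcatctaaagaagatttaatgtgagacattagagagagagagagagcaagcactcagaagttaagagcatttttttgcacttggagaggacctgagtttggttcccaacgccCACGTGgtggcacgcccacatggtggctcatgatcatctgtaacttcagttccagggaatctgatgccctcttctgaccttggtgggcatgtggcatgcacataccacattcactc
Psme1: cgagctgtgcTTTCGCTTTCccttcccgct

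Motifs were searched on both strands from 250 bases before to 50 bases after the gene start, and none of the 19 matches in the proteasome promoters overlapped another. The core of the interferon-stimulated response element (GAAA, any 2 bases, GAAA), the motif of the factors that answer to interferon, occurred in 5 of 42 proteasome promoters (11.9%, against 3.44% of all 32851) and is the capital run of Psme1, read there on the opposite strand. The other 4 were Psmd4, Psmd9, Psmb3 and Psmg4. The gamma-activated site TTCNNNGAA, a further motif of interferon-induced genes, was in 3 of 42 (7.14%, against 8.3%), namely Psmb8, Psmd2 and Psmg1. The E-box CACGTG, bound by Myc with its partner Max, was in 5 of 42 (11.9%, against 7.15%), namely Psmb10, Psma4, Psmd9, Psme3 and Psme3ip1. The core TGACNNNGC of the antioxidant response element, bound by the Nfe2l factors that drive proteasome genes, was in 6 of 42 (14.3%, against 12.4%), namely Psmb5, Psmb6, Psmc6, Psmd9, Psmd12 and Psme4. The window of Psmb9 held none of these letters. It shares 275 of its 300 bases with the window of Tap1, which starts on the opposite strand and codes for a subunit of the peptide transporter.

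Psmb5, the constitutive subunit that Psmb8 replaces, was measured by a pair of probe sets that disagreed. Probe set 101558_s_at gave 774, 677, 1014 and 621 in control lung, 1313, 1255 and 1305 in the small, 997, 1121, 1094 and 1338 in the middle and 1224, 962 and 1281 in the large tumors, and rose by 0.65 ± 0.13 on the log2 scale (SE, adjusted p = 0.0011, limma). Of the 10 tumors, 8 lay above all control lungs. Probe set 160559_at gave 319, 155, 206 and 404 in control lung and between 141 and 259 in 9 tumors, with a log2 difference of -0.44 ± 0.25 (SE, adjusted p = 0.17, limma; without control replicate 2 it was called lower, adjusted p = 0.044). The suffix _s_at marks probes that can match more than 1 transcript.

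Psmb6 was the most variable of the 50 in the tumors, with 252, 495 and 483 in small, 164, 675, 416 and 301 in middle and 218, 211 and 182 in large tumors, against 204, 172, 453 and 335 in control lung. The groups overlapped widely (log2 difference 0.16 ± 0.33, SE, adjusted p = 0.74, limma). Psmb7 gave 524, 452, 524 and 435 in control lung and between 435 and 700 in the tumors (0.28 ± 0.14, SE, adjusted p = 0.11, limma; 0.032 without middle replicate 4). Psme3, which forms the nuclear PA28 activator, gave 331, 395, 292 and 229 in control lung and between 199 and 545 in the tumors (0.40 ± 0.20, SE, adjusted p = 0.13, limma).

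To set each inducible catalytic subunit against the one it replaces, the log2 difference of their signals was taken within each array. Psme1 was set against Psme3 of the nuclear PA28 activator in the same way, although Psme1 does not take the place of Psme3. Such a difference is left as it is by the scaling of arrays, apart from values under the limit of 70. Psmb8 minus Psmb5 (101558_s_at) lay between -0.17 and 0.42 in control lung and between -1.66 and -0.61 in the tumors, so that all 10 tumors were below the 4 control lungs. The group means differed by -1.42, or 2.67-fold (adjusted p = 0.004, exact two-sided permutation test, Benjamini-Hochberg over 4 differences; the unadjusted 0.002 is the smallest that this design can give). With the other probe set of Psmb5, chosen after the values were seen, the difference was -0.32 with 9 tumors (exact p = 0.389).

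Psmb10 minus Psmb7 also separated the groups, with 0.20 to 0.55 in control lung and -1.14 to 0.03 in the tumors. The means differed by -0.91, or 1.88-fold (adjusted p = 0.004, exact permutation test). The probe set of Psmb7 (94263_f_at) bears a suffix that marks probes shared by a gene family. Psmb9 minus Psmb6 lay between -0.06 and 1.5 in control lung and between -1.88 and 0.57 in the tumors, of which 9 were below all control lungs, and the means differed by -1.83, or 3.56-fold (adjusted p = 0.0107, exact permutation test). Psme1 minus Psme3 differed by 0.50 (adjusted p = 0.132, exact permutation test), with means of 1.67 ± 0.17 in small, 2.43 ± 0.49 in middle and 1.31 ± 0.39 in large tumors and 1.37 ± 0.34 in control lung (SD, n = 3, 4, 3 and 4).

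**Figure D3:**
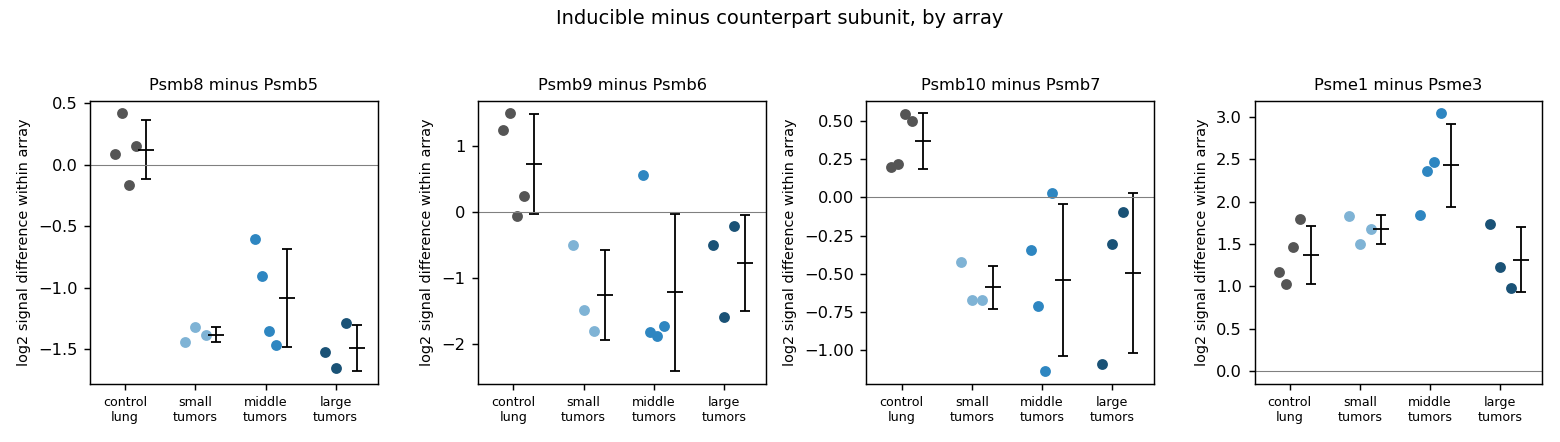
Within-array log2 difference of each interferon-inducible subunit and the subunit it was set against, per array in control lung and the 3 tumor sizes; the bar beside the points is the mean ± SD. All 10 tumors lie below the 4 control lungs for Psmb8 minus Psmb5 and for Psmb10 minus Psmb7, and 9 of 10 for Psmb9 minus Psmb6, while the groups overlap for Psme1 minus Psme3.

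The assembly chaperones Psmg1 and Psmg2 showed the largest rises. Psmg1, which pairs with Psmg2 to build the alpha ring, gave 117, 103, 116 and 99.9 in control lung, 282, 351 and 284 in the small, 199, 267, 238 and 293 in the middle and 242, 353 and 277 in the large tumors. No tumor came near the control range. The log2 difference was 1.36 ± 0.15 (SE, adjusted p = 5.3e-06, limma), or 2.56-fold higher, and Psmg1 was called in each tumor size.

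Psmg2 gave 95.9, 100, 179 and 92 in control lung, 354, 397 and 337 in the small, 129, 323, 127 and 354 in the middle and 215, 197 and 222 in the large tumors. Here 8 tumors were above all control lungs, while 2 middle tumors lay within the control range. The log2 difference was 1.16 ± 0.28 (SE, adjusted p = 0.0035, limma), and by size it was called only in small tumors (1.69, adjusted p = 0.0023), with adjusted p = 0.054 and 0.059 in middle and large tumors. Between large and small tumors the difference was -0.78 (adjusted p = 0.64, limma).

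Psmg3, which acts with Psmg4, was again measured by 2 probe sets that differed. Probe set 94543_at gave 43.4, 81.5, 92.8 and 68.9 in control lung and between 87.9 and 250.3 in the tumors, 9 of them above all control lungs (0.85 ± 0.23, SE, adjusted p = 0.0079, limma). Probe set 162356_r_at lay between 307 and 319 on 3 control arrays and at 791 on the other one, and between 288 and 548 in the tumors (-0.12 ± 0.26, SE, adjusted p = 0.75, limma).

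Psmg4 gave 360, 256, 377 and 405 in control lung and between 373 and 644 in the tumors, with the 3 large tumors at 477, 644 and 595. It rose by 0.48 ± 0.15 (SE, adjusted p = 0.018, limma; 0.092 without control replicate 2). By size, the rise was called in large tumors (0.72, adjusted p = 0.0094, limma).

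Of the chaperones of the 19S base, none was called over all tumors. Psmd10 (gankyrin) lay between 40.1 and 95.9 in control lung and between 68.2 and 161 in the tumors (0.40 ± 0.23, SE, adjusted p = 0.17, limma), and Psmd9 between 202 and 296 and between 205 and 274 (0.01 ± 0.13, SE, adjusted p = 0.95). Psmd5 gave 616, 551, 756 and 503 in control lung, 531, 685 and 759 in the small, 532, 584, 363 and 609 in the middle and 445, 260 and 234 in the large tumors. All 3 large tumors were below every control lung and every small tumor. It fell in large tumors by 1.00 ± 0.26 on the log2 scale (SE, adjusted p = 0.0052, limma) and gave -0.37 (adjusted p = 0.13; 0.036 without large replicate 1) over all tumors.

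**Figure D4:**
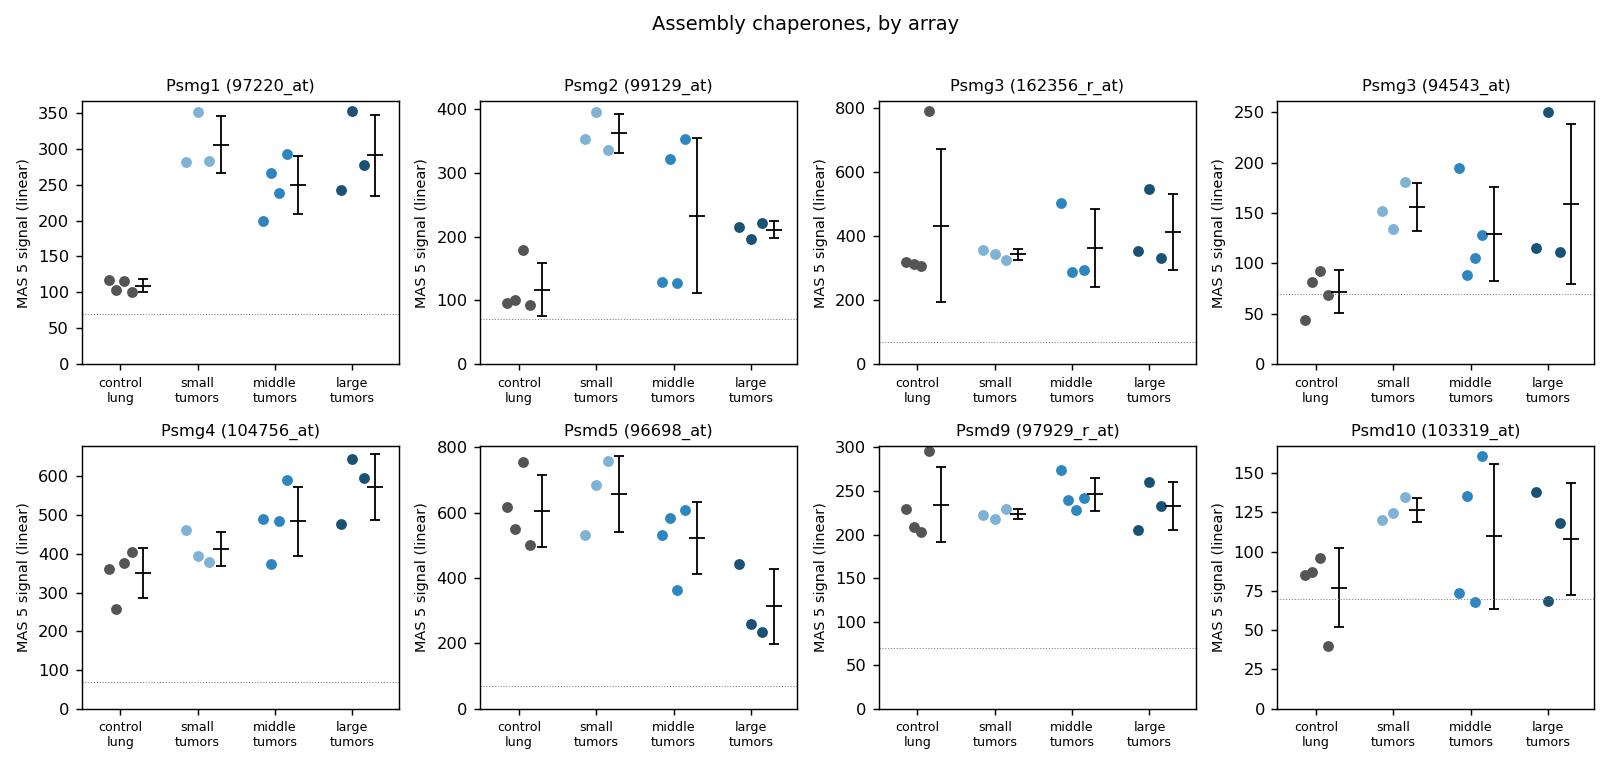
MAS 5 signal per array (linear axis from 0) of the 8 tested probe sets of assembly chaperones in control lung and the 3 tumor sizes; the bar beside the points is the mean ± SD, and the dotted line is the limit of 70. All 10 tumors lie above the control lungs for Psmg1, and the 3 large tumors lie below them for Psmd5.

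Of the alpha subunits, which form the outer rings and the gate of the barrel, 4 of 7 probe sets rose and 3 were not called, with a median log2 difference of 0.32. Of all probe sets 22.7% rose. Psma3 gave 1658, 1815, 1938 and 1543 in control lung and between 2226 and 2907 in the tumors. The groups did not overlap (0.54 ± 0.10, SE, adjusted p = 0.00047, limma). Psma5 (0.58, adjusted p = 0.0068), Psma4 (0.39, adjusted p = 0.032) and Psma2 (0.32, adjusted p = 0.042) rose as well, and Psma7, Psma1 and Psma6 gave 0.25, 0.25 and -0.01.

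Of the structural beta subunits, 1 of 5 tested probe sets rose (20%, against 22.7% of all probe sets). Psmb1 (98113_at) gave 541, 630, 675 and 648 in control lung, 914, 909 and 1013 in the small, 684, 1084, 926 and 1030 in the middle and 985, 903 and 930 in the large tumors. Every tumor lay above every control lung, 1 middle tumor only just (0.59 ± 0.12, SE, adjusted p = 0.0011, limma). The other tested probe set of the gene, 160875_at, gave 685, 741, 922 and 734 in control lung and between 665 and 1141 in the tumors and was not called (0.25 ± 0.13, SE, adjusted p = 0.15, limma). Psmb4, Psmb3 and Psmb2 gave 0.24, 0.12 and 0.07.

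None of the 7 tested probe sets of the 19S ATPases was called over all tumors, and their median was -0.08. Without middle replicate 4, Psmc1 was called lower (adjusted p = 0.041, limma). Psmc1 gave 466, 478, 524 and 428 in control lung, 420, 403 and 426 in the small, 280, 442 and 470 in the middle and 359, 297 and 345 in the large tumors. It fell in large tumors (-0.51, adjusted p = 0.04, limma), a call that was lost under 12 of 28 alternatives, among them each of those without control replicate 1, 2 or 3, small replicate 1, 2 or 3 or large replicate 1, 2 or 3. The 3 probe sets of Psmc3 gave -0.39, -0.20 and -0.08, Psmc2 -0.07, Psmc5 0.07 and Psmc6 0.16.

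Of the 19S subunits without ATPase activity, 3 of 12 probe sets rose (25%, against 22.7% of all probe sets) and the median was 0.29. Psmd3, a scaffold of the 19S lid, gave 671, 728, 728 and 697 in control lung and between 744 and 1010 in the tumors, all above the control lungs (0.38 ± 0.09, SE, adjusted p = 0.0031, limma). Psmd6 (0.51, adjusted p = 0.0069) and Psmd8 (0.42, adjusted p = 0.035), a pair of further lid subunits, rose too, although Psmd6, which has no value on middle replicate 3, gave 0.21 and was not called with the values of 0 kept (adjusted p = 0.79, limma). Psmd11 (160305_at, 0.41) and Psmd12 (0.63) rose in small tumors (adjusted p = 0.049 and 0.047, limma) and gave 0.26 and 0.39 over all tumors, not called (Psmd12 was called without control replicate 3, adjusted p = 0.018, limma). The further probe sets of Psmd11, 160304_r_at and 94796_at, were not called over all tumors either. The deubiquitinase Psmd14 and the ubiquitin receptor Psmd4 gave 0.32 and 0.04 (adjusted p = 0.088 and 0.81, limma). Psme4, the single-chain activator PA200, rose by 0.44 ± 0.15 (SE, adjusted p = 0.029, limma).

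Several of the smaller rises depended on single arrays. Psma2 was not called without control replicate 1, 2 or 4, small replicate 1, 2 or 3, middle replicate 2 or large replicate 1 or 3, and Psmd8 not without control replicate 1, 3 or 4, small replicate 1 or 3, middle replicate 2 or large replicate 2 or 3. Psma4 was not called without control replicate 1, 2 or 4 or small replicate 2, and Psme4 not without control replicate 1 or 4 or small replicate 3. Psmg4 was not called without control replicate 2. The highest adjusted p over the alternatives without 1 array or under another setting was 0.947 for Psma2, 0.0993 for Psmd8, 0.115 for Psma4, 0.118 for Psme4 and 0.0919 for Psmg4. The rises of Psmg1, Psmg2, Psmg3 (94543_at), Psme1, Psmb5 (101558_s_at), Psmb1 (98113_at), Psma3, Psma5 and Psmd3 and the falls of Psmb8, Psmb9 and Psmb10 over all tumors were called under every alternative that gave a value for them.

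Over the members as a whole, 5 of 50 had every tumor above every control lung (Psmg1, Psme1, Psma3, Psmb1 and Psmd3), or 10%, against 10.4% of all probe sets. The highest tumor was at the median 1.68 times the lowest one for the 50 probe sets, and the highest control lung 1.38 times the lowest. Psma3 varied least in the tumors (1.31 times), and Psmb6 (4.12 times), Psmd11 (160304_r_at, 4.01 times) and Psmb9 (3.47 times, with the limit of 70 as its lowest value) most. The 8 probe sets not tested were 161923_at of Psmb1, 98556_at and 98558_r_at of Psmb4, 95672_at of Psmc4, 161921_f_at of Psmc5, 92645_at of Psmd2, 161293_r_at of Psme1 and 102970_at of Psmc3ip. Psme3ip1, tested but no subunit, gave -0.14.

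By tumor size, 14 of the 50 rose and 3 fell in small tumors, against 18.7% and 16.3% of all probe sets. In middle tumors 6 rose and 3 fell, against 14.6% and 16.2%. Without control replicate 3 the number that rose there was 11, against 1045 of all 8041 probe sets. Without middle replicate 1 it was 14, against 1442 of 8065. Under the scaling to 1 median 23 rose and 1 fell there, against 23.6% and 12.7% of all probe sets under that scaling. In large tumors 8 rose and 5 fell, against 19.2% and 17.8%, and under that scaling 11 rose and 4 fell, against 22.2% and 15.5%. The 5 that fell in large tumors were Psmb8, Psmb9, Psmb10, Psmd5 and Psmc1. The median log2 difference was 0.33 in small, 0.26 in middle and 0.05 in large tumors, and over all probe sets it was 0.00, 0.01 and 0.07. The median in large tumors was 0.15 without large replicate 3, 0.02 without large replicate 1, 0.12 without control replicate 3 and 0.01 without control replicate 2. The sizes share their control lungs, so these numbers are not independent of each other.

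The sizes were then compared with each other. No proteasome probe set was called in any pair of sizes, and of all probe sets 0% was called in each pair (limma, adjusted p under 0.05). At an unadjusted p under 0.05, 4 of 50 differed between large and small tumors, against 8% of all probe sets, 3 between middle and small, against 6.19%, and 5 between large and middle, against 9.99%. The methods' t-test called none after Benjamini-Hochberg adjustment. At an unadjusted p under 0.05 it called 15 of 50 between large and small tumors (14 of them lower in large tumors), against 10.0% of all probe sets, 3 between middle and small, against 4.34%, and 2 between large and middle, against 5.86%. Psmd5 gave the largest difference, -1.12 between large and small tumors (adjusted p = 0.16, limma), and was called with array weights (-1.15, adjusted p = 0.024).

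Large tumors were lower than small ones in 45 of the 50 probe sets, with a median of -0.20 against 0.01 over all probe sets, as a description without a test. Of all 8127 probe sets, 3690 were lower in large tumors. All 16 tested probe sets of constitutive 20S subunits and all 7 of the 19S ATPases were among the 45. The signal of Psme3 moved apart from the others, with differences of -0.65 between middle and small and 0.76 between large and middle tumors (adjusted p = 0.77 and 0.39, limma).

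**Figure D5:**
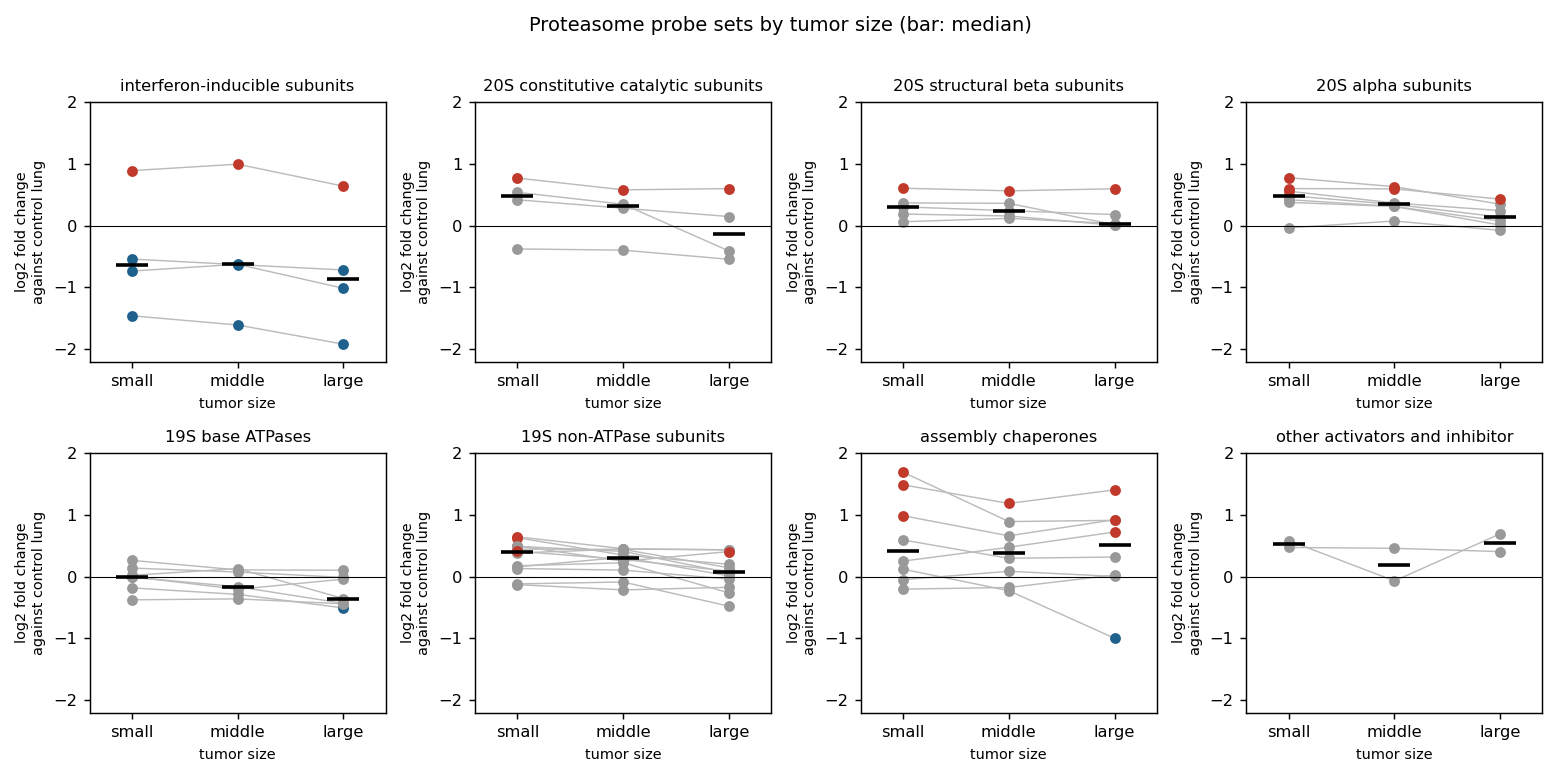
Log2 fold change against control lung of the tested proteasome probe sets in small, middle and large tumors, in 8 panels by role; each line is 1 probe set, red and blue points were called higher and lower (limma, adjusted p under 0.05), grey points were not called, and the black bar is the median. The median of the alpha subunits was 0.48 in small, 0.34 in middle and 0.14 in large tumors, and that of the interferon-inducible subunits -0.64, -0.63 and -0.87.

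Among the 10 tumors, the signals of the inducible subunits were related to each other, to the pan-leukocyte marker Ptprc (CD45) and to Tap1, the latter chosen after the values were seen, in 14 relations. Psmb8 and Psmb9 were correlated with Pearson's r = 0.84 (adjusted p = 0.029, permutation test) and Spearman's rho = 0.75 (adjusted p = 0.241, permutation test). Without the 2 tumors farthest from the median of Psmb8, r was 0.47, and after the mean of each size was subtracted it was 0.88. Leaving out the farthest tumors also narrows the range of Psmb8, so the lower r cannot decide whether the relation rests on them. No other relation passed (adjusted p of r between 0.512 and 0.991, permutation test). With Ptprc, r was 0.26 for Psmb8 and for Psmb9, 0.17 for Psmb10 and 0.27 for Psme1. The median signal of Ptprc in the tumors was 58.6, which is under the limit for an expressed gene. Lower signals were set to that limit, so the tumors under it were tied. These values of r therefore cannot decide whether the inducible subunits follow Ptprc among the tumors.

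The other genes of class I antigen processing were lower as well. Of 8 tested genes 6 fell (75%, against 20.8% of all probe sets) and none rose in all tumors, with a median log2 difference of -0.81. Tap2, the partner of Tap1 in the peptide transporter, fell most (-1.22, adjusted p = 0.00028, limma), followed by the light chain B2m (-1.05, adjusted p = 9.3e-05), the chaperone Tapbp (-0.86, adjusted p = 0.00098) and the heavy chain H2-K1 (-0.85, adjusted p = 6.4e-05). The probe sets of H2-K1 and H2-D1 bear the suffix _f_at, which marks probes shared by a gene family. So do the tested ones of Psma3, Psmb7, Psmd12 and Psmb4, and 100225_f_at and 93735_f_at of Psmc3. Tap1, whose start lies next to that of Psmb9, gave 260.5 to 529 in control lung and 211 to 276 in the tumors (-0.75, adjusted p = 0.0022, limma). Pdia3 and Canx, chaperones of the endoplasmic reticulum with wider duties, gave 0.39 and -0.04 and were not called.

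Of 25 tested genes of interferon signalling and response, 17 fell (68%, against 20.8% of all probe sets) and none rose, with a median of -0.80. Gbp2, a guanylate-binding protein, fell by 2.43 on the log2 scale (adjusted p = 2.4e-08, limma), from between 410.2 and 612 to between 46.7 and 107. Ifit3 gave -1.72, Irf8 -1.64 and Irf1, a factor through which interferon induces Psmb9 and Tap1, -1.31. Irf9 and Ciita gave -0.05 and 0.41, not called.

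Most pan-leukocyte and lymphocyte markers moved with the inducible catalytic subunits, and their part in the falls was not tested. Over the 9 of 10 pan-leukocyte markers measured on all arrays, the summed signal was 3403 to 5936 in control lung, 3155 to 3452 in small, 2359 to 3444 in middle and 2106 to 2714 in large tumors. Lcp1, the brightest in this sum, went the other way, with means of 1085 in control lung and 1313 in the tumors (log2 difference 0.29, not called). Rac2 gave -0.48 and was not called either. The sum of 14 lymphocyte and NK cell markers was 2906 to 4035 in control lung and 669.7 to 3186 in the tumors, with Cd3d, Cd3g, Cd8a and Cd8b1 under 70 on every array. Ighm was the brightest in this sum, with a mean of 1726 in control lung and signals between 241 and 2459 in the tumors. The defining marker Ptprc lay between 105 and 467 in control lung and between 5.15 and 109.6 in the tumors. Endothelial markers had a median log2 difference of -3.28, from sums of 21335 to 26248 to sums of 2037 to 3581 over 12 genes. The sum of 17 macrophage markers was 10671 to 13331 in control lung and 8039 to 13469 in the tumors. Lyz2 was the brightest in this sum, with means of 4259 in control lung and 4258 in the tumors. Csf1r, Mrc1, Tyrobp and Ctss were called lower (-1.06, -0.70, -1.31 and -0.34), Cd14 was called higher (1.08), and 7 tested markers were not called.

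Of 19 tested genes of the wider ubiquitin pathway, 5 rose and 2 fell in all tumors, with a median of 0.16. These shares were 26.3% and 10.5%, against 22.7% and 20.8% of all probe sets. Usp14 and Uchl5, the deubiquitinases that dock on the 19S particle, rose by 0.90 and 0.88 (adjusted p = 0.0004 and 0.0015, limma), and Skp1, the adaptor of SCF ubiquitin ligases, by 0.98 (adjusted p = 0.00066). The small lid subunit Sem1 gave 0.55 (adjusted p = 0.011, limma) and the segregase Vcp 0.33. Those that fell were Nfe2l1, the factor that drives proteasome genes when the proteasome is impaired (-0.62, adjusted p = 0.0032, limma), in which all 9 tumors with a value lay below every control lung, and the ubiquitin receptor Sqstm1 (-0.75, adjusted p = 0.00049). Pomp, the maturation factor of the core, gave 0.01 (adjusted p = 0.96).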

How the data were processed

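RNA of 14 samples (4 control lungs, 10 tumor samples) was put on 1 Affymetrix U74v2 array each. The deposited values are linear intensities (MAS 5 signal), which the authors computed with GCOS and scaled to a target of 250 per array. Detection calls were not used here. Gene symbols are those of the platform annotation. Groups are those of the labels, and no sample was left out.

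From the deposited intensity, 66 control probe sets were removed, and 3125 values listed at 0 or under 1e-06 on the array of middle tumor replicate 3 were treated as missing. Signals were set to at least 70, the methods' limit for an expressed gene, and put on the log2 scale. Probe sets reaching 70 on at least 3 arrays were kept (8127). A model with 4 groups was fitted across all genes with limma 3.58.1 under R 4.3.3, its variance prior following the mean signal, 7 comparisons were read from it, all tumors being the mean of the 3 sizes, and p-values were adjusted over all probe sets (Benjamini-Hochberg, called under 0.05). The fit was tested on simulated data. Within-array differences were tested with exact permutation tests and relations with 100000 permutations (scipy 1.17.1). For lists of other genes the probe set with the highest mean per symbol was used. With arrays, the number of samples limits the precision.

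The members, the lists and the tests were chosen with earlier results of these data known. Named are the inducible subunits and those they were set against, the 5 largest rises and falls and members that fell or whose probe sets disagreed. Also named are members called in a single size and 2 to 4 genes of the lists for class I antigen processing, interferon and ubiquitin. Cd14, Lyz2, Csf1r, Mrc1, Tyrobp, Ctss and Ighm of the cell type lists and further members by role were chosen after their values were seen. Alternatives were floors of 35 and 1, scaling to 1 median or by quantiles, a filter of 70 on at least 7 arrays or none, 1 probe set per gene, values of 0 kept, a robust spread without trend, array weights, only the groups compared, a replicate block, the methods' t-test and leaving out each array. Differences with Psme2, which had been planned, were not analysed here, as it has no probe set with a single symbol, and 1 further planned set of relations is not reported here.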

Additional observations from a re-analysis of the deposited data

Results flagged for a closer look

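In 77 groups of 4 to 10 arrays over 28 of the proteasome probe sets named, 3 groups held 1 array far from the others, and chance alone gives about 1 in 20. For Psmg3 (162356_r_at), control replicate 4 read 791 while the other control lungs lay between 307 and 319. For Psmg2, control replicate 3 read 179 while the other control lungs lay between 92 and 100, and the rise of Psmg2 over all tumors was called with and without each array. For Psmb1 (98113_at), middle replicate 1 read 684 while the other tumors lay between 903 and 1084.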

How the results depend on the processing

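Most values kept their direction and their side of the threshold. The number of proteasome probe sets that rose against control lung was higher under the scaling to 1 median (25 in all, 23 in small and 23 in middle tumors, against 29.0%, 23% and 23.6% of all probe sets) and with array weights (26 in small and 14 in middle tumors, against 27.5% and 18.4%). Under the methods' t-test without adjustment it was 22 in small and 11 in middle tumors, against 25.2% and 16.0%, and after adjustment 3 in middle tumors, against 6.38%. The number that fell was 5 over all tumors with array weights and with the unadjusted methods' t-test (against 26.1% and 23.3%), 1 in middle tumors under the scaling to 1 median (against 12.7%) and 3 in large tumors under the adjusted methods' t-test (against 14.3%). Between sizes, the unadjusted methods' t-test called 15 (large and small), 3 (middle and small) and 2 (large and middle), against 10.0%, 4.34% and 5.86% of all probe sets, and array weights 1 (large and small), against 0.591%. Without 1 array, 5 to 14 rose in middle tumors. The 5 were found without control replicate 1, against 931 of all 8024 probe sets. The 14 were found without middle replicate 1, against 1442 of 8065. Over all probe sets, 2353 rose and 1384 fell under the scaling to 1 median, in place of 1842 and 1687. With the values of 0 kept and set to 70, Psma2, missing on middle tumor replicate 3, turned to a log2 difference of -0.075. With the other probe set of Psmb5, Psmb8 minus Psmb5 was -0.32. Of the relations, 0 passed without the 2 farthest tumors and 0 under the scaling to 1 median. For the other changes the cause was not tested.

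The labels number the samples of every group, but each array is another animal. The deviations of 19 pairs with the same number correlated between -0.24 and 0.11. Those of 54 pairs with different numbers correlated between -0.37 and 0.52. Arrays with the same number thus did not deviate together more than others, and a shared batch was not tested. With a replicate block, 12 proteasome probe sets rose and 3 fell over all tumors, 10 and 2 did in small, 6 and 3 in middle and 7 and 4 in large tumors, and 0 differed between sizes. Of all 8127 probe sets, 1721 rose and 1616 fell over all tumors with that block. By size these numbers were 1376 and 1272 in small, 1088 and 1258 in middle and 1424 and 1402 in large tumors.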
